A study of Homo sapiens with 12 samples.

Results

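The 5743 regions of BrdU-labelled DNA listed for IMR90 cells were set against the 84471 regions listed for the histone mark H3K18ac in the same cell line. Every region of both lists was used, and together they make up 90214 of the 169273 regions in the series' 6 lists. The series covers 3 human cell lines, the lung fibroblasts IMR90, the osteosarcoma line Saos-2 and the embryonic stem cell line H1, with BrdU sequencing in all 3 and H3K18ac in H1 and IMR90. Each list came from 1 library, so nothing here can be set against the spread of replicates, and no test between libraries was possible. The 6 input samples have no region list.

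IMR90 is a line of primary lung fibroblasts, grown here in DMEM with serum at passages 7 to 12 and given no siRNA. For BrdU sequencing, 4 µg of labelled IMR90 DNA was treated with hot alkali, sheared, denatured, pulled down with a BrdU antibody and made double-stranded by random priming. For H3K18ac, each immunoprecipitation took lysate of 5000000 IMR90 cells and an antibody described as custom. The assays used different library kits. The other lists named here served only for comparison. The H1 control BrdU list came from H1 cells at passages 35 to 45 that received a non-targeting siRNA and 10 µM HA 1077 and were collected 72 h after transfection. The Saos-2 BrdU list and the H1 H3K18ac list came from cells without siRNA. The sources used here give neither the labelling time nor whether cells were synchronised, and the labelled cell types were not checked against marker genes because no hg19 gene annotation was used here.

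Bromodeoxyuridine (BrdU) is a thymidine analogue that cells build into DNA as they copy it, so an antibody to it recovers newly made DNA. H3K18ac is an acetylated lysine of the histone H3 tail, placed mainly by the acetyltransferases p300 and CBP, and is known from the promoters and enhancers of active genes. Gene-rich, acetylated parts of the genome are known to replicate early in S phase and gene-poor parts late, and replication origins are known to lie often near active promoters.

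The IMR90 BrdU regions were small and far apart, and those of the mark were larger and clustered. All regions lie on a grid of 100 bp windows. The BrdU list covered 1216 kb, with a median width of 100 bp, a mean of 212 bp and a maximum of 3400 bp, and 3530 of its regions (61.5%) were a single window. Neighbouring BrdU regions were separated by a median of 85.4 kb, and 858 of these gaps were 10 kb or less. The H3K18ac list covered 39.5 Mb, with a median width of 300 bp, a maximum of 26800 bp and a median gap of 1.10 kb. It took up 1.42% of the genome open to placement, defined next. Library depth is unknown, since the lists hold no read counts.

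Distances were measured from the midpoint of each BrdU region to the nearest edge of an H3K18ac region and sorted into 5 classes, where any shared base counted as an overlap. They were compared with placement, which means the share of each class over every grid position at which a region of the same width could have lain on the same chromosome, within 500 kb bins that held a region of any list. A fold is the share of BrdU regions divided by the share of these positions. The 95% intervals are Wilson intervals of the observed shares. They cover the counting error of regions only, and neighbouring regions are not independent.

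IMR90 BrdU regions lay nearer to IMR90 H3K18ac than positions along their chromosomes did, but few of them touched it. Of the 5743 regions, 140 overlapped the mark, which is 2.44% (2.07 to 2.87) of BrdU regions against 1.84% of positions, a fold of 1.32 (1.12 to 1.56). A further 361 regions lay 1 to 1000 bp from it, 6.29% (5.69 to 6.94) of BrdU regions against 3.66% of positions, and this class had the highest fold of the 5, 1.72 (1.55 to 1.90). The 1 to 10 kb class held 1239 regions, 21.6% of BrdU regions against 17.98% of positions. The 10 to 50 kb class held 2033 regions, 35.4% of BrdU regions against 30.1% of positions. Their folds were 1.20 (1.14 to 1.26) and 1.18 (1.14 to 1.22). The remaining 1970 regions lay beyond 50 kb, 34.3% of BrdU regions against 46.5% of positions, a fold of 0.738 (0.712 to 0.765). The shortage of BrdU regions far from the mark was thus spread over the 4 nearer classes.

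The median distance was 25.6 kb (24.1 to 27.1) for BrdU regions and 42.0 kb for positions. The difference in kb between BrdU regions and positions widened with distance. The nearest 10% of BrdU regions lay within 1.31 kb, against 2.75 kb for positions, and the 90% mark lay at 157 kb for BrdU regions, against 427 kb for positions. Only 32 BrdU regions (0.557%) were more than 500 kb from the mark, and 7 of them were more than 1 Mb away.

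**Figure D1:**
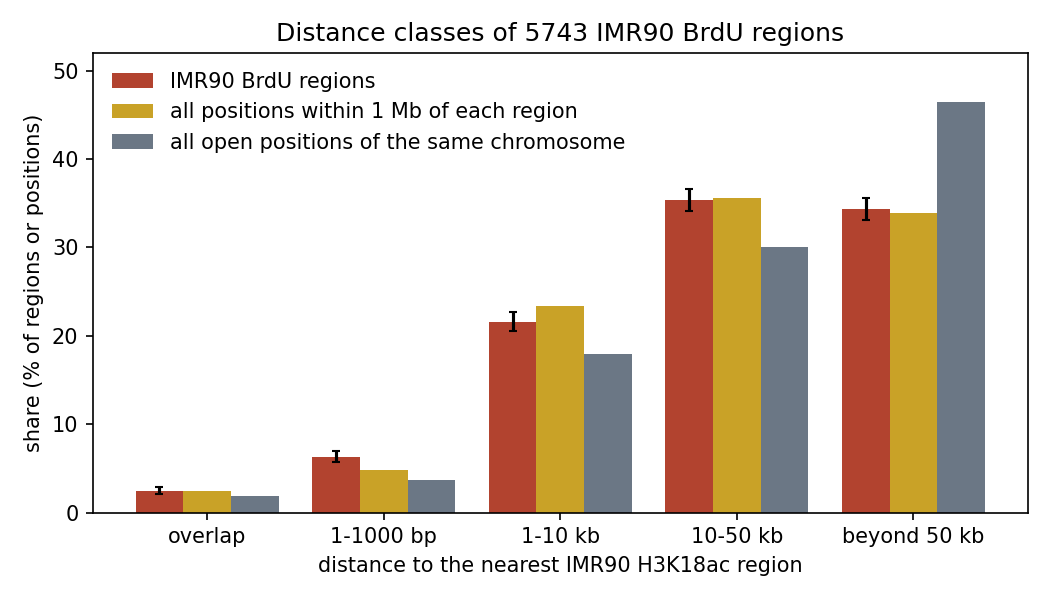
Share of IMR90 BrdU regions (red, left, with 95% Wilson intervals, n = 5743), of all positions within 1 Mb of each region (yellow) and of all open positions of the same chromosome (grey) in 5 classes of distance to the nearest IMR90 H3K18ac region. The red bar stands above both others at 1 to 1000 bp (6.29%, 4.80% and 3.66%), and beyond 50 kb it matches the 1 Mb positions and stands below the chromosome (34.3%, 33.9% and 46.5%).

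Against positions close to each BrdU region, most of these differences were not seen. When positions were restricted to 1 Mb on either side of each region, the overlap share was 2.44% of BrdU regions against 2.43% of positions, a fold of 1.00 (0.851 to 1.18). The folds were 0.996 (0.961 to 1.03) at 10 to 50 kb and 1.01 (0.977 to 1.05) beyond 50 kb. The 1 to 1000 bp class kept a fold of 1.31 (1.19 to 1.45), and the 1 to 10 kb class had 0.923 (0.879 to 0.970). The 1 to 1000 bp fold was 1.24 (1.12 to 1.37) when positions came from within 250 kb and 1.29 (1.17 to 1.42) when they came from within 100 kb. Of the 5 classes, it was the only one whose interval lay above 1 at all of these scales and along the chromosome.

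Bins of 500 kb were ranked by their IMR90 H3K18ac coverage and divided into 5 groups of 1117 or 1118 bins. The density of IMR90 BrdU regions was 0.557 per Mb in the group of lowest coverage, then 1.27, 2.25 and 3.04, and 3.19 per Mb in the group of highest coverage. The 2 upper groups were close to each other although their mean H3K18ac coverage was 1.65% and 4.56%. The lowest group held 5.40% of BrdU regions against 20.0% of positions, and 87.7% of its bins had no BrdU region, against 43.1% of bins in the highest group. From the lowest to the highest group, the same bins held 1.03 to 2.54 H1 control BrdU regions per Mb and 1.81 to 2.61 Saos-2 regions per Mb. The IMR90 list thus had the widest range of the 3 across bins ranked by the IMR90 mark. H1 H3K18ac coverage also rose across these groups, from 0.157% in the lowest to 0.902% in the highest.

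When each region was placed only in bins of its own group on its chromosome, the overlap fold was 0.981 (0.833 to 1.15) and the 1 to 1000 bp fold 1.31 (1.18 to 1.45). The near class was above placement in each of the 3 groups of highest coverage, at 1.73 (1.35 to 2.23) in the third group, 1.41 (1.18 to 1.68) in the fourth and 1.17 (1.02 to 1.35) in the fifth. The overlap folds in these groups were 1.50 (0.937 to 2.39), 1.11 (0.816 to 1.51) and 0.867 (0.702 to 1.07), and each of these intervals includes 1. In the second group, 7 BrdU regions lay 1 to 1000 bp from the mark, a fold of 0.974 (0.472 to 2.00), and in the first group 1 did.

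**Figure D2:**
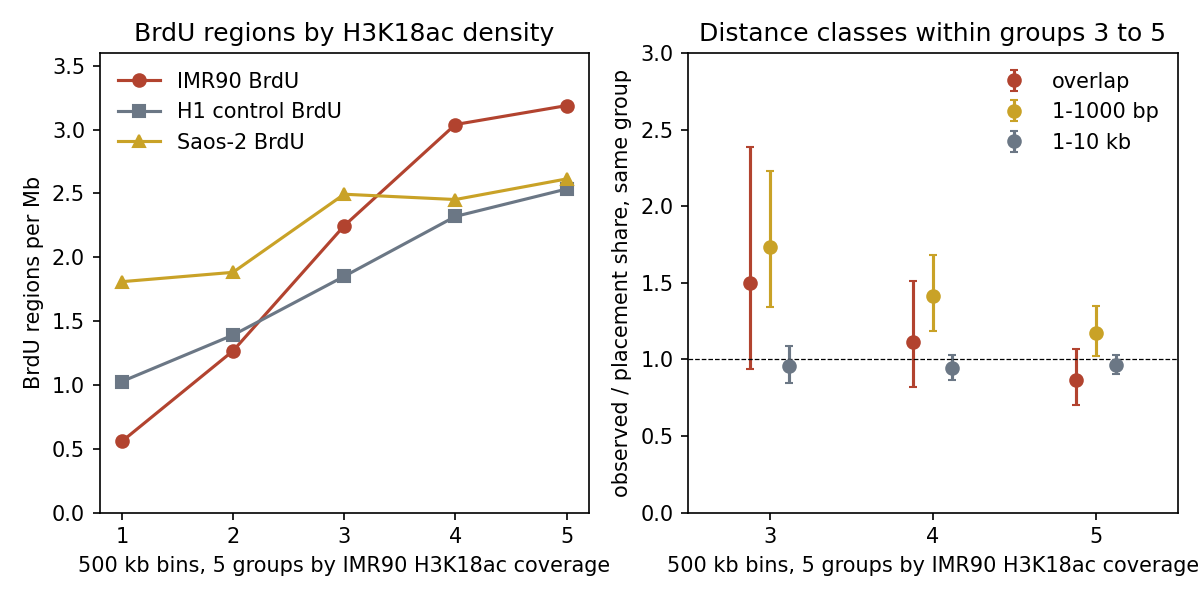
Left, BrdU regions per Mb in 500 kb bins divided into 5 groups by IMR90 H3K18ac coverage, low to high, for IMR90, H1 control and Saos-2; right, folds over positions in bins of the same group, with 95% intervals, for groups 3 to 5. The IMR90 line climbs from 0.557 to 3.19 regions per Mb, and the 1 to 1000 bp points (yellow) are above 1 in all 3 groups shown; the 2 lowest groups, with 7 and 1 regions in that class, are not drawn.

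The stretches between H3K18ac regions gave the same picture. Gaps of more than 1 Mb between neighbouring H3K18ac regions held 313 BrdU regions, 5.45% of the list against 18.6% of positions, a fold of 0.293 (0.263 to 0.327). Gaps of 200 kb to 1 Mb had a fold of 0.971 (0.935 to 1.01). Folds were 1.27 (1.22 to 1.31) in gaps of 50 to 200 kb, 1.26 (1.19 to 1.33) in gaps of 10 to 50 kb, 1.44 (1.27 to 1.64) in gaps of 1 to 10 kb and 1.55 (1.23 to 1.96) in gaps of 1 kb or less. Short gaps are those inside clusters of the mark. There, 85 BrdU regions had an H3K18ac region within 1000 bp on both sides, 1.48% (1.20 to 1.83) of BrdU regions against 0.921% of positions, a fold of 1.61 (1.30 to 1.98).

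Relative to the length of the gap, BrdU regions lay slightly more often in the part next to an H3K18ac border than positions did. Position was expressed as the distance to the nearer border divided by the gap length, for the 5555 BrdU regions whose midpoint had a mark on either side. The part of this scale at a border (0 to 0.1) held 22.1% of BrdU regions against 20.7% of positions, a fold of 1.07 (1.02 to 1.12). In gaps of more than 1 Mb, this part reaches beyond 50 kb from the mark. The middle (0.4 to 0.5) held 18.7% of BrdU regions against 19.6% of positions, a fold of 0.954 (0.903 to 1.01). In gaps of 10 to 50 kb, the border fold was 1.16 (1.04 to 1.29) and the middle fold 0.877 (0.770 to 0.997). In gaps of 1 to 10 kb, 50 to 200 kb and 200 kb to 1 Mb, the intervals of both folds included 1. In gaps of more than 1 Mb, 141 of the 313 BrdU regions (45.0%, against 23.7% of positions) lay in the part next to a border, a fold of 1.90 (1.67 to 2.14), and 26 lay in the middle, a fold of 0.462 (0.319 to 0.661).

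Overlap with the mark differed by the width of the BrdU region. The 3530 regions of 100 bp overlapped H3K18ac 95 times, 2.69% of these regions against 1.52% of positions, a fold of 1.77 (1.45 to 2.16). The 913 regions of 200 bp overlapped it 22 times, with a fold of 1.31 (0.866 to 1.96). The 930 regions of 300 to 500 bp overlapped it 14 times, 1.51% of these regions against 2.39% of positions, a fold of 0.629 (0.376 to 1.05). The 370 regions of 600 bp or more overlapped it 9 times, 2.43% of these regions against 3.55% of positions, a fold of 0.684 (0.361 to 1.28). Over the 1300 regions of 300 bp or more together, the fold was 0.650 (0.434 to 0.970), and it was 0.510 (0.341 to 0.761) over positions within 1 Mb. Over the 4443 narrower regions it was 1.66 (1.39 to 1.98), and 1.24 (1.04 to 1.48) over positions within 1 Mb. This pooling at 300 bp was not among the width classes fixed beforehand. Along the chromosome, the interval of each wide class taken alone included 1.

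The near class did not follow width in this way. Its folds were 1.64 (1.45 to 1.86), 2.06 (1.64 to 2.57), 1.71 (1.31 to 2.23) and 1.57 (0.881 to 2.77) from the narrowest to the widest regions, and these intervals overlap each other. The median distance to the mark was 23.7 kb at 100 bp, 26.5 kb at 200 bp, 28.8 kb at 300 to 500 bp and 32.5 kb at 600 bp or more.

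**Figure D3:**
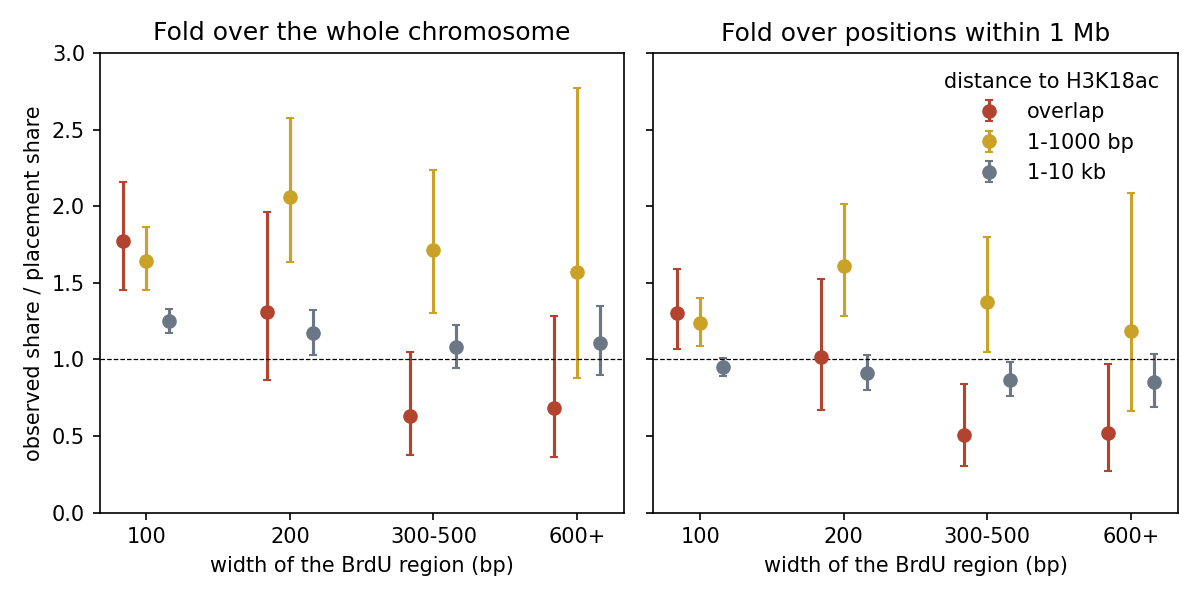
Folds of 3 distance classes by width of the IMR90 BrdU region, with 95% intervals, over the whole chromosome (left) and over positions within 1 Mb (right). The overlap points (red) stand at 1.77 for 100 bp regions and at 0.629 and 0.684 for the 2 widest classes in the left panel, and at 1.30, 0.505 and 0.519 in the right panel.

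Coverage around the BrdU midpoints showed where along the DNA this difference lay. Around 100 bp regions, the window at the midpoint was in H3K18ac in 2.69% of regions and windows 100 to 500 bp away in 2.68%, and coverage then declined to 1.94% at 20 to 50 kb. The mean of the same chromosomes was 1.52%. Around regions of 300 to 500 bp, coverage was 0.645% at the midpoint, 1.34% at 100 to 500 bp, 1.86% at 600 to 1000 bp and 2.08% at 1 to 2 kb. Around regions of 600 bp or more, it was 0.811% at the midpoint, 1.05% at 100 to 500 bp, 1.73% at 600 to 1000 bp and 2.43% at 2 to 5 kb. The midpoint values of the 2 wider classes rest on 6 of 930 and 3 of 370 windows. Wide BrdU regions thus had less of the mark at their centre than along their chromosome, and more than along it from 600 bp outwards. At 600 to 1000 bp, coverage was still below that at 20 to 50 kb from the same regions, 2.04% and 1.96%.

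**Figure D4:**
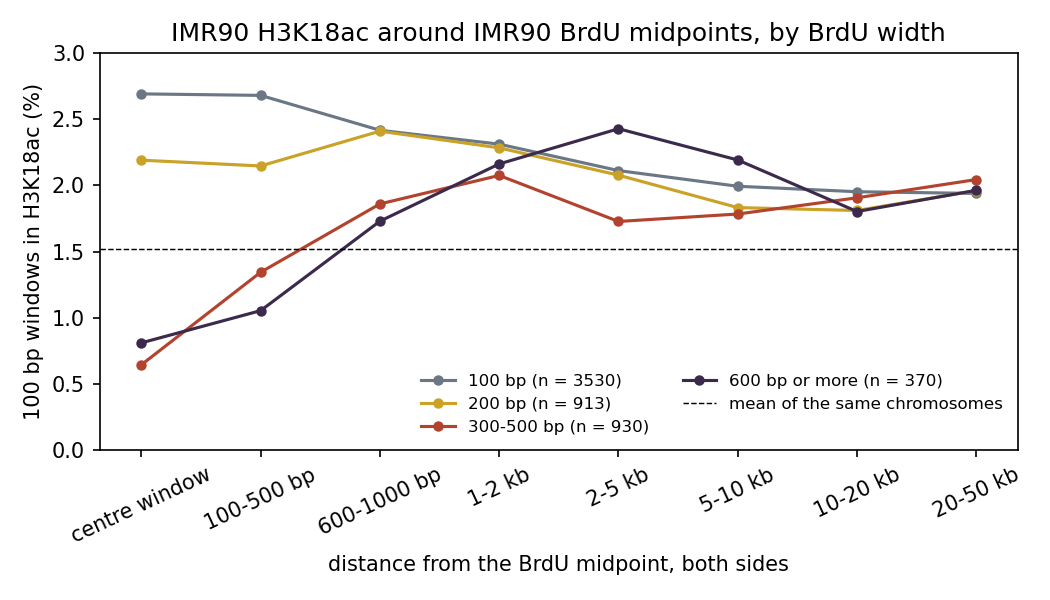
Percentage of 100 bp windows in an IMR90 H3K18ac region by distance from the IMR90 BrdU midpoint, both sides combined, for 4 widths of BrdU region; the dashed line is the mean of the same chromosomes, 1.52%. The 2 wider classes start at 0.645% and 0.811% at the centre and cross the dashed line before 1 kb, and the 100 bp class starts at 2.69%.

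Score and sharing with other cell lines moved together with width. The score is the authors' value for each region, its meaning is not stated, and it is used here only to rank regions within the list. Its Spearman correlation with width over the 5743 BrdU regions was 0.805. In 5 equal groups from the lowest to the highest score, the overlap fold was 1.57 (1.08 to 2.27), 1.97 (1.42 to 2.72), 1.61 (1.13 to 2.28), 1.35 (0.934 to 1.93) and 0.635 (0.412 to 0.976). The group of highest score had a median width of 400 bp, and the 3 lowest groups one of 100 bp. Among the 3530 single-window regions alone, the overlap fold was 1.79 (1.36 to 2.37) above their median score and 1.75 (1.32 to 2.31) at or below it. At a fixed width of 100 bp, overlap with the mark therefore did not differ beyond its interval between high and low scores. At 1 to 1000 bp, the fold was 1.46 (1.21 to 1.76) above the median score and 1.82 (1.54 to 2.15) at or below it. Beyond 50 kb, the folds were 0.778 (0.730 to 0.828) and 0.647 (0.603 to 0.693) in the same order. Over positions within 1 Mb, the folds beyond 50 kb were 1.04 (0.979 to 1.11) and 0.939 (0.875 to 1.01).

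The 4026 BrdU regions found in IMR90 alone overlapped its H3K18ac 112 times, a fold of 1.69 (1.41 to 2.03). The 853 regions that overlapped a BrdU region of 1 other line, H1 control or Saos-2, had 11 overlaps with the mark, a fold of 0.640 (0.358 to 1.14). The 864 regions found in all 3 lines had 17, a fold of 0.754 (0.472 to 1.20). The overlap fold over positions within 1 Mb was 1.24 (1.04 to 1.49) for regions in IMR90 alone. It was 0.532 (0.298 to 0.947) for those in 1 other line and 0.589 (0.369 to 0.936) for those in all 3. Both shared groups were thus below placement at this scale, whereas along the chromosome their intervals included 1. The median widths were 100, 200 and 400 bp in the same order. At 1 to 1000 bp from the mark, the folds were 1.87 (1.68 to 2.09) for regions in IMR90 alone, 1.24 (0.903 to 1.69) for those in 1 other line and 1.30 (0.927 to 1.82) for those in all 3. Over positions within 1 Mb they were 1.40 (1.25 to 1.56), 1.03 (0.748 to 1.40) and 1.05 (0.747 to 1.47). Among the regions of 100 to 200 bp, those in IMR90 alone had an overlap fold of 1.82 (1.51 to 2.20), against 0.946 (0.480 to 1.85) for those in 1 other line and 0.772 (0.263 to 2.23) for those in all 3, which rest on 8 and 3 overlaps. Among the regions of 300 bp or more, those in IMR90 alone had a fold of 0.749 (0.344 to 1.61) from 6 overlaps. The separate parts of width and sharing cannot be told apart from counts this small.

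From the side of the mark, BrdU regions overlapped H3K18ac regions of each width class. Marks of a single window were overlapped by 9 BrdU regions, a fold of 0.818 (0.431 to 1.55). Marks of 200 to 500 bp were overlapped by 48, a fold of 1.42 (1.07 to 1.88), and marks of 600 to 1000 bp by 42, a fold of 1.57 (1.17 to 2.12). Marks of 1100 to 3000 bp were overlapped by 29, a fold of 1.02 (0.709 to 1.46). The 572 marks wider than 3000 bp were overlapped by 12 BrdU regions, a fold of 2.05 (1.17 to 3.58). At 1 to 1000 bp, the fold was 1.66 for single-window marks, 1.65 at 200 to 500 bp, 1.66 at 600 to 1000 bp and 2.55 (1.84 to 3.55) at 1100 to 3000 bp, where 35 BrdU regions lay beside such a mark. Beyond 10 kb, the nearest mark had the widths that placement gave, for example 37.3% single windows for BrdU regions and 38.1% for positions at 10 to 50 kb.

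Of the 140 overlaps, 95 were single-window BrdU regions, which on the shared grid always lie wholly inside the mark they touch. Of the other 45, 21 lay inside an H3K18ac region, 16 crossed an edge and 8 contained a mark. The shared sequence came to 19.1 kb, 1.57% of all BrdU bases, and touched 140 H3K18ac regions, 0.166% of that list. The overlapped marks had a median width of 700 bp. In the 83 overlaps with marks of 600 bp or more, 44 BrdU midpoints (53.0%) were nearer to an edge of the mark than to its centre. Within a mark, that outer part is as long as the inner part. Some of the 44 midpoints, however, lay beyond the edge and outside the mark, in overlaps that crossed an edge. No placement share was computed for this split.

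Seen from the 84471 H3K18ac regions, DNA in the BrdU list was rarely close. The median distance from the midpoint of a mark to the nearest BrdU region was 221 kb, and 5.09% (4.94 to 5.24) of marks had a BrdU region within 10 kb, against 3.81% of positions, a fold of 1.34 (1.30 to 1.38). For marks wider than 3000 bp this share was 8.57% (6.54 to 11.1) of marks against 4.06% of positions, a fold of 2.11 (1.61 to 2.75). It was 4.74% (4.48 to 5.01) of single-window marks against 3.80% of positions, a fold of 1.25 (1.18 to 1.32). Marks are clustered, with a median gap of 1.10 kb, so a single BrdU region can lie near several of them. The intervals of this paragraph count each mark separately and may be too narrow. From this side, positions within 1 Mb were not compared.

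The regions of highest score showed every arrangement. Positions are in hg19, and no gene annotation of that build was used here, so the genes at these sites are not named. The overlapping BrdU region of highest score, at rank 12 in the list, spanned chromosome 5 from 14402601 to 14404200 and contained a 300 bp mark that began at the same base, 14402601. The next spanned chromosome 17 from 60869801 to 60871500, 1700 bp, with a 300 bp mark inside it from 60870001 to 60870300. Another, on chromosome 2 from 47104701 to 47105900, lay inside a 2200 bp mark from 47104301 to 47106500.

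Among regions beside the mark, that of highest score lay on chromosome 17 from 79398201 to 79399200, with its midpoint 700 bp from a 700 bp mark that ended at 79398000. The next, on chromosome 2 from 100632401 to 100633400, had its midpoint 701 bp from a 2700 bp mark that began at 100633601. The region of highest score beyond 50 kb was at rank 5 in the list, on chromosome 7 from 76626101 to 76627800, at 85.0 kb from a single-window mark. Those on chromosome 14 from 106029101 to 106030900 and on chromosome 12 from 110071901 to 110073900 lay 81.8 and 93.3 kb from the nearest mark. Among the 100 regions of highest score, 5 overlapped the mark against 4.12 from placement, 2 lay 1 to 1000 bp away against 1.34, and 37 lay beyond 50 kb against 47.4.

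The 10 widest H3K18ac regions differed in their nearest BrdU region. The widest, 26800 bp on chromosome 17 from 46644201 to 46671000, had its nearest BrdU region 126 kb away. The second, 14700 bp on chromosome 17 from 48262801 to 48277500, contained a 200 bp BrdU region from 48267601 to 48267800. The third, on chromosome 2 from 66660801 to 66675000, had a single-window BrdU region 0.801 kb from its edge. That BrdU region was itself inside another mark, of 800 bp from 66659701 to 66660500, and so counts among the overlaps. Of the 10 widest, the third was the only one whose nearest BrdU region lay outside it but within 50 kb. The second was the only one with a BrdU region inside. For the other 8, the nearest BrdU region lay between 52.9 and 1383 kb away.

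Nearness to the mark along the chromosome was found on most autosomes. The share of BrdU regions overlapping the mark or within 10 kb of it was above placement on 19 of 22, and the interval lay above 1 on 15 and below 1 on 0. For the whole list, the fold of this share was 1.29 (1.24 to 1.34) along the chromosome. It was 0.990 (0.952 to 1.03) over positions within 1 Mb and 0.945 (0.908 to 0.982) within 250 kb. Single chromosomes were not compared at those scales. Chromosome 13 had the highest fold, with 62 of 140 BrdU regions within 10 kb, 44.3% of BrdU regions against 19.9% of positions, a fold of 2.22 (1.82 to 2.64). Chromosome 16 followed with 37.8% of BrdU regions against 22.5% of positions, a fold of 1.68 (1.45 to 1.92). The lowest folds were 0.928 (0.731 to 1.16) on chromosome 12, 0.944 (0.725 to 1.21) on chromosome 20 and 0.996 (0.804 to 1.21) on chromosome 22. The densest chromosomes in BrdU regions, 22 with 6.55 and 19 with 6.53 regions per Mb, were thus not those where the mark was nearest relative to placement.

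The same IMR90 BrdU regions lay much closer to the H3K18ac regions of H1 than to those of IMR90. Their median distance to the H1 mark was 4.95 kb, and 545 of them overlapped it, 9.49% (8.76 to 10.3) of BrdU regions against 1.05% of positions, a fold of 9.02 (8.32 to 9.76). Over positions within 1 Mb this fold was 4.35 (4.01 to 4.71), against 1.00 for the IMR90 mark. The 2 lists of the mark are spaced differently, with median gaps of 10.7 kb in H1 and 1.10 kb in IMR90, so the raw medians are not like for like. Beyond 50 kb from the H1 mark lay 6.56% of IMR90 BrdU regions and 31.6% of positions. For the IMR90 mark these shares were 34.3% and 46.5%. By width, the overlap fold with the H1 mark was 6.99 (6.04 to 8.07) for regions of 100 bp, 9.63 (7.92 to 11.7) at 200 bp, 11.6 (10.1 to 13.3) at 300 to 500 bp and 9.59 (8.13 to 11.2) at 600 bp or more, so wide regions were above placement here and below it at the IMR90 mark. The H1 control BrdU regions likewise had a median distance of 5.80 kb to the H1 mark with an overlap fold of 8.996 (8.23 to 9.83), and of 27.1 kb to the IMR90 mark with an overlap fold of 1.32 (1.10 to 1.57). Saos-2 BrdU regions lay at a median of 39.2 kb from the IMR90 mark, with an overlap fold of 1.16 (0.993 to 1.36). At 1 to 1000 bp from the IMR90 mark, the folds over the whole chromosome were 1.72 (1.55 to 1.90) for IMR90, 1.44 (1.28 to 1.62) for H1 control and 1.39 (1.25 to 1.56) for Saos-2. Over positions within 1 Mb they were 1.31 (1.19 to 1.45), 1.22 (1.09 to 1.38) and 1.28 (1.14 to 1.43). The near class was thus above placement in all 3 BrdU lists. When the IMR90 list was split by sharing, only the regions found in IMR90 alone had an interval above 1. Those found in 1 other line and in all 3 lines held 37 and 32 regions in this class. Their folds along the chromosome were 1.24 and 1.30, with wide intervals that included 1. The difference between these groups was not tested.

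**Figure D5:**
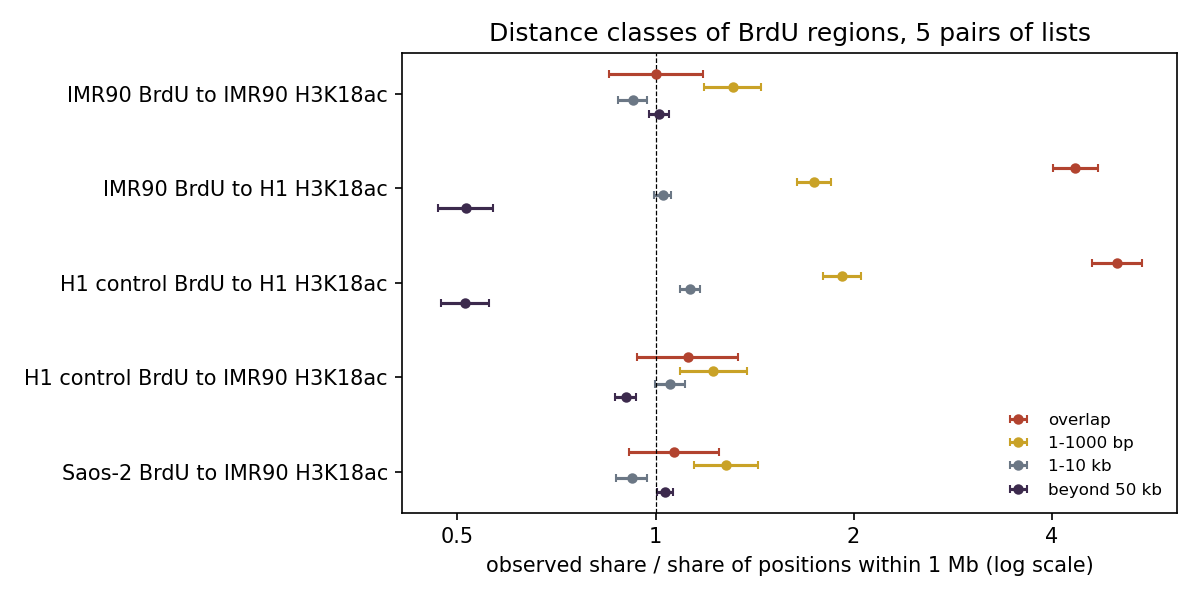
Folds over positions within 1 Mb (log scale) of 4 distance classes for 5 pairs of a BrdU list and an H3K18ac list, with 95% intervals. Overlap (red) stands at 1.00 for IMR90 BrdU at the IMR90 mark and at 4.35 for IMR90 BrdU at the H1 mark.

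Overlap in IMR90 was above placement at marks also found in H1, and its interval included 1 at marks found in IMR90 only. Of the 84471 IMR90 H3K18ac regions, 12289 (14.5%) overlapped an H1 H3K18ac region. These were overlapped by 62 IMR90 BrdU regions, 1.08% of BrdU regions against 0.409% of positions, a fold of 2.64 (2.06 to 3.38), which was 1.51 (1.18 to 1.93) over positions within 1 Mb. The 72182 marks found in IMR90 only were overlapped by 78 BrdU regions, 1.36% of BrdU regions against 1.44% of positions, a fold of 0.943 (0.757 to 1.17), or 0.786 (0.631 to 0.979) over positions within 1 Mb. At 1 to 1000 bp, the folds were 3.31 (2.84 to 3.85) for marks also in H1 and 1.41 (1.25 to 1.59) for marks in IMR90 only, and over positions within 1 Mb they were 1.92 (1.65 to 2.24) and 1.13 (1.00 to 1.27). The nearest mark was sought within each subset alone, and marks also in H1 lie at the H1 mark, where IMR90 BrdU regions had a fold of 9.02. In addition, marks also in H1 were wider, with a median of 400 bp against 300 bp.

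At the H1 mark itself, IMR90 BrdU regions overlapped the IMR90 mark less often than positions did. The 545 BrdU regions that overlapped the H1 mark overlapped the IMR90 mark 49 times, 8.99% (6.87 to 11.7) of these regions against 22.7% of positions that also overlapped the H1 mark, a fold of 0.396 (0.303 to 0.515). At 1 to 1000 bp from the IMR90 mark their fold was 0.688 (0.530 to 0.887), and beyond 50 kb it was 1.33 (1.18 to 1.50). The other 5198 BrdU regions overlapped the IMR90 mark 91 times, 1.75% of these regions against 1.59% of positions outside the H1 mark, a fold of 1.10 (0.898 to 1.35), and at 1 to 1000 bp their fold was 1.66 (1.49 to 1.85). Without the restriction of positions by the H1 mark, the overlap folds of these sets were 3.99 (3.05 to 5.19) and 0.972 (0.793 to 1.19), so the direction in the first set depends on the positions it is compared with.

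In every distance class from the IMR90 mark, more BrdU regions than positions overlapped the H1 mark. The shares were 35.0% of BrdU regions against 12.9% of positions among those overlapping the IMR90 mark, and 14.4% against 4.30% at 1 to 1000 bp. In the 3 farther classes they were 8.15% against 1.00%, 8.21% against 0.847% and 8.93% against 0.480%. The H1 and IMR90 H3K18ac libraries are 1 each, and whether their lists differ in depth was not tested.

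Over 5282 autosomal bins of 500 kb, the Spearman correlation of the number of IMR90 BrdU regions with coverage was 0.338 for the IMR90 mark and 0.589 for the H1 mark. The IMR90 and H1 marks correlated at 0.422 with each other. These are descriptions across bins that share libraries and base composition.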

How the data were processed

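Regions came from the deposited lists of 4 BrdU and 2 H3K18ac libraries. Per the submitters' processing notes, reads were handled with Bowtie 0.12.7 and hg19. The sources used here do not give the region caller, its threshold, the treatment of duplicate reads or the use of inputs. The deposited score of each region is a whole number of unstated meaning, and was used only to rank regions within a list.

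Distances, placement shares and intervals were computed with numpy 2.4.6, scipy 1.17.1 and pandas 2.3.3 under Python 3.11.15, and plotted with matplotlib 3.10.9. Placement enumerated every 100 bp grid position on the region's chromosome within 5587 bins of 500 kb (2787 Mb) that held a region of any list, with no random draws. The code was checked on simulated lists with planted overlaps. Positions were written 1-based.

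With 1 library per list there is no test and no p-value. Alternatives were other overlap rules, other territories and scales of placement, stricter lists, merged BrdU regions and autosomes only. Some comparisons were added after the distances had been seen. They included splits by gap length, by position within a gap and by presence of the H1 mark, with and without matched positions. So were the pooling of BrdU widths at 300 bp and its joint split with sharing. The placement within bins of like coverage and the scales of 250 and 100 kb were added then too. The named regions are the first of the 10 of highest score in the overlap, 1 to 1000 bp and beyond 50 kb classes, and of the 10 widest marks. The question, classes and lists were chosen with earlier results of these data known. Sequences and gene annotation of hg19 were not used here.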

Additional observations from a re-analysis of the deposited data

How the results depend on the processing

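No paired analysis was possible because each list comes from 1 library and no test was run. Requiring the BrdU midpoint or 50% of the BrdU region to lie in the mark, merging BrdU regions within 10 kb into 4885 loci, or using autosomes only left every class fold and the median distance within its interval. With placement over the whole chromosome span, the folds were 1.28 at 1 to 10 kb, 1.25 at 10 to 50 kb and 0.691 beyond 50 kb. With placement in occupied 100 kb bins, the folds were 1.09 for overlap, 1.41 at 1 to 1000 bp, 1.01 at 10 to 50 kb and 0.943 beyond 50 kb, and the 1 to 10 kb fold turned to 0.990. With placement within 1 Mb, overlap was 1.00 and the near class 1.31, and the folds turned to 0.923 at 1 to 10 kb, 0.996 at 10 to 50 kb and 1.01 beyond 50 kb. Within 250 kb, a scale chosen after seeing the data, the near class was 1.24 and the others turned to 0.935 for overlap, 0.885, 0.979 and 1.08. Within 100 kb, chosen likewise, the near class was 1.29 and the others 0.976 for overlap, 0.919, 0.982 and 1.04. With the upper 50% of both lists by score, the overlap fold turned to 0.918 (0.680 to 1.24), the fold beyond 50 kb was 0.867 and the median distance 50.9 kb. With H3K18ac regions of 300 bp or more, the fold beyond 50 kb was 0.813 and the median distance 43.8 kb. The causes of these shifts were not tested. The 1 to 1000 bp fold lay above 1, with its interval, under all 11 alternatives.

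Library depth, replicate error and the authors' threshold are unknown, so absence from a list is no measure of absent signal. Both lists come from 1 library each. Placement knows nothing of mappability or base composition, and their part was not tested. Overlap counts in the wide and shared BrdU groups are between 3 and 23, and their intervals are correspondingly wide.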
